A study of Rattus norvegicus with 6 samples.

Results

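The 10 genes described here code for the neuronal cytoskeleton: the neurofilament subunits Nefl, Nefm and Nefh, the related filament gene Ina, the neuronal tubulin gene Tubb3, the microtubule-associated protein genes Map2, Mapt, Map1a and Map1b, and the stathmin gene Stmn2. They were chosen by symbol as axonal and dendritic cytoskeleton genes, with earlier results of these data known. All 10 were found, each as 1 of the 32662 features of the deposited table. The tissue was amygdala taken at postnatal day 38 from Sprague Dawley rats, which are an outbred strain, with the sex given as male. The 3 B-CTRL libraries are from rats tested for social play behaviour, and the 3 NB-CTRL libraries from rats without that test. No genotype, drug or other agent is given for either group, and the labels do not tie each library to an animal of its own: p-values here speak of the spread from library to library, which may be technical. How long after the test the tissue was taken is not stated in the labels.

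Neurofilaments are intermediate filaments that fill axons and set their calibre. Nefl, Nefm and Nefh give the light, medium and heavy subunits, which assemble together with alpha-internexin, the product of Ina. Microtubules are built from alpha and beta tubulin and are bound along their length by structural proteins: tau, from Mapt, is concentrated in axons of mature neurons, MAP2 marks dendrites and cell bodies, MAP1B is abundant in growing neurites and MAP1A in mature ones, largely in dendrites. Stathmin-2, from Stmn2, binds free tubulin and is linked to axon growth and maintenance.

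Levels are FPKM, fragments scaled by transcript length and by the number of mapped fragments, with 1 value per gene and library. FPKM sums ran from 579141 to 641725 in B-CTRL and from 522422 to 536937 in NB-CTRL, and the number of fragments behind them is unknown. None of the 10 genes had a 0 in any library. The 37 features of the mitochondrial genome had no value above 0, so not every 0 here means absence; Clip3, Ppp2ca and Npy of the lists used below were also listed at 0 in all libraries. B-CTRL 1 stood apart from its label of male: the chromosome Y gene Eif2s3y was at 0.317 FPKM there and at 49.5 to 89.9 FPKM in the other 5 libraries. The summed level of the choroid plexus markers was 7231 FPKM in B-CTRL 1 and 5.16 to 28.2 FPKM elsewhere, with Otx2 of that list at 0 in all libraries. Differences of the 10 genes and medians of the other lists counted below are therefore also given without B-CTRL 1. Among genes known from amygdala nuclei, picked after the data were seen, Prkcd of the central nucleus ran from 12.4 to 23.3 FPKM and Lhx6 of the medial nucleus from 3.18 to 9.91 FPKM. Rspo2 of the basolateral nucleus was at 19.3 FPKM in B-CTRL 1 and from 0.299 to 2.16 FPKM in the others; Tac2 was not analysed here.

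All 10 genes were strongly expressed. Between 82.8% (Nefh) and 97.9% (Tubb3) of the 14043 features that were tested (those averaging 0.5 FPKM or more) lay below them. In order of the 6-library mean ± SD, which is per transcript length and so can be set side by side, Tubb3 stood at 312 ± 38.2 FPKM, Stmn2 at 255 ± 52.2, Nefl at 239.9 ± 48.7, Map2 at 209.7 ± 53.8 and Map1a at 152 ± 41.7. Mapt followed at 141 ± 23.9 FPKM, Nefm at 114 ± 22.3, Map1b at 114 ± 43.0, Ina at 61.4 ± 12.03 and Nefh at 47.6 ± 18.7. Map2 lay above Map1a, Map1b above Ina, and Ina above Nefh in 6 of 6 libraries. The order of the other neighbours was not the same in every library, and Nefm lay above Map1b in 3 of 6. Map1b varied most over the libraries, with the highest value 3.03 times the lowest, and Tubb3 least, at 1.43 times.

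Groups were compared on the scale of log2(FPKM + 0.5), with limma fitted to all 14043 features and p-values adjusted by Benjamini-Hochberg. In B-CTRL 8 of the 10 genes had a lower mean log2 level, as had 50.3% of all features (39.9% with median scaling and 34.2% with centring on pan-neuronal markers), and 2, Nefl and Stmn2, a higher one, which turned to -0.012 and -0.092 with quantile normalization. None of the 10 passed the adjusted threshold of 0.05, and of all features 0% did (0 of 14043). At an unadjusted p under 0.05 there were 4 of the 10, Map1b, Map1a, Mapt and Ina, all lower in B-CTRL, against 6.07% of all features that were lower at that p and 12.3% in either direction. The same 4 had every B-CTRL library below every NB-CTRL library, against 12% of all features. Among the 2414 features with a mean at or above that of Nefh, 5.10% had every B-CTRL library lower and the median log2 difference was 0.17, while the median of the 10 genes was -0.40. In tissue RNA, fewer neurons or neurites in a sample and less RNA per neuron cannot be told apart.

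**Figure D1:**
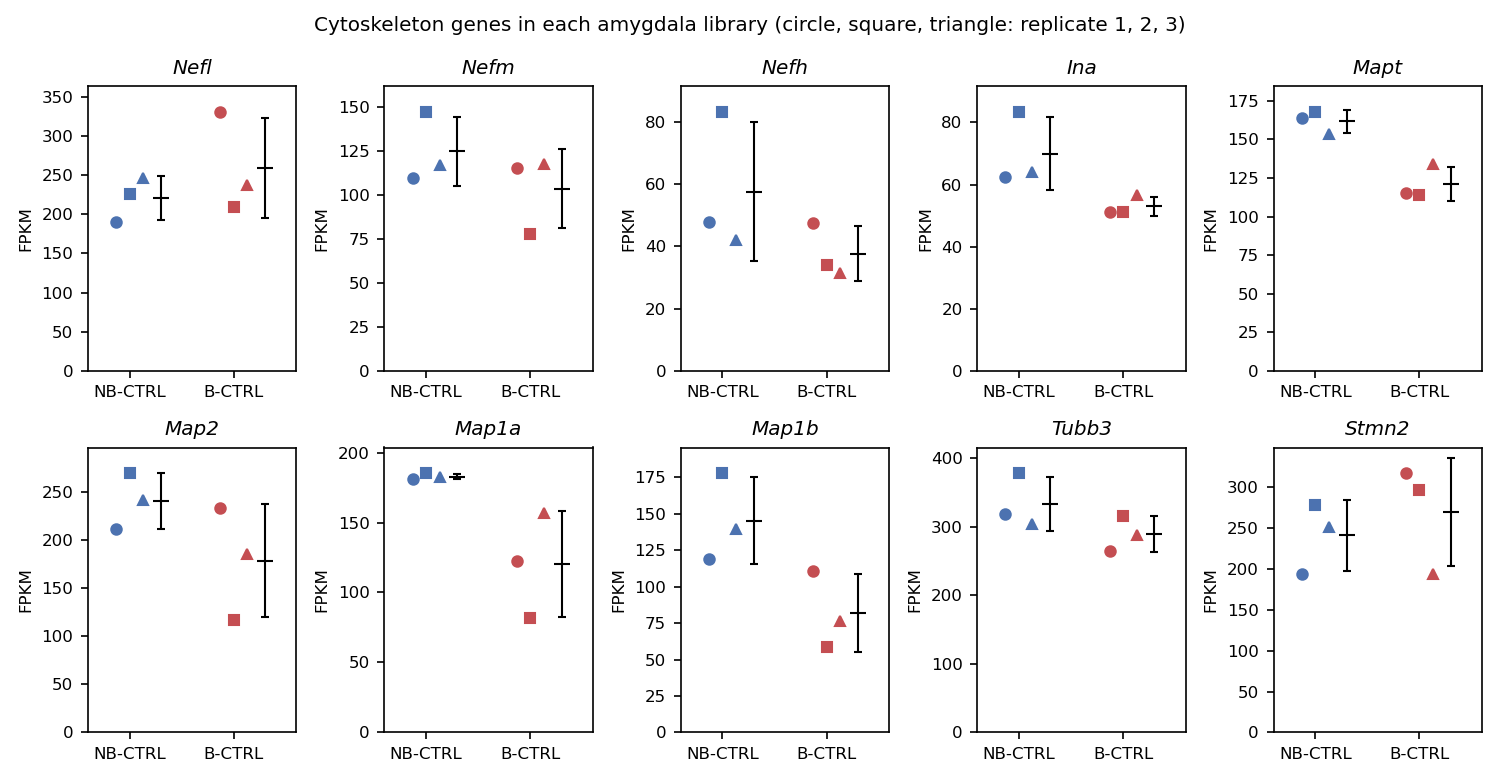
FPKM of each of the 10 genes in each library (y axes start at 0; blue NB-CTRL, red B-CTRL; circle, square and triangle are replicates 1, 2 and 3; the black bar is the mean ± SD of 3 libraries). The groups do not overlap for Ina, Mapt, Map1a and Map1b, and overlap for the other 6 genes.

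Proximal promoters were read for genes that lay lower in every B-CTRL library, to show the sequence beside the values, and for Tubb3, whose groups overlapped. RefSeq promoter sequences of assembly GRCr8 were matched by symbol for 5 of the 10 genes, Ina, Map1a, Map1b, Map2 and Tubb3, and the 250 bases before the annotated start are printed for 4 of them, 5′ to 3′ on the gene's strand. Capitals mark the GC box GGGCGG, on either strand, and the TATA box TATAAA, on either strand; no match overlapped another. The positions are chr1:255837879-255838128 (plus strand) for Ina, chr3:128722445-128722694 (plus) for Map1a, chr2:32644472-32644721 (minus) for Map1b and chr19:68365437-68365686 (plus) for Tubb3.
Ina: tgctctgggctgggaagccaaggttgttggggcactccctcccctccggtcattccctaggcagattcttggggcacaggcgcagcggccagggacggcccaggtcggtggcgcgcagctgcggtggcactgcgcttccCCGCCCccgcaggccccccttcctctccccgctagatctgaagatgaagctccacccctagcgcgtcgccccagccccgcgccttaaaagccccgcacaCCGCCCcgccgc
Map1a: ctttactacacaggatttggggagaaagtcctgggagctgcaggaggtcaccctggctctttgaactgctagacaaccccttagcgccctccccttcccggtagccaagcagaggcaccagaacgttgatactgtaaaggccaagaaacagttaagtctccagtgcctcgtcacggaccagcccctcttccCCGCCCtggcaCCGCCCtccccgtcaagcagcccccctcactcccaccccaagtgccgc
Map1b: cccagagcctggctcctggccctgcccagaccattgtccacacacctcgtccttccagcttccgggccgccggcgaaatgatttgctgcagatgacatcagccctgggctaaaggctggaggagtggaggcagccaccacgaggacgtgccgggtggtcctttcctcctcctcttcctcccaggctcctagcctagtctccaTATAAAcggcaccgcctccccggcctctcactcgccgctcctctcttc
Tubb3: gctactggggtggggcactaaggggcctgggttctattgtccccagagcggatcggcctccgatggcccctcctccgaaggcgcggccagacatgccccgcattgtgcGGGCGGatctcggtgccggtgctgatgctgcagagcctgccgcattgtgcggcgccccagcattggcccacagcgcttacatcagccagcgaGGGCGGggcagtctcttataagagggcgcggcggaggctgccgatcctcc
Ina, Map1a and Tubb3 each held 2 GC boxes, a motif found in 30.5% of the 33469 promoter windows of this length, and no TATAAA. Map1b held 1 TATAAA, found in 12.9% of windows, and no GC box. Map2, whose window is not printed, held neither motif. The cyclic AMP response element TGACGTCA (in 1.59% of windows) and the AP-1 motif TGANTCA (in 6.34%), which bind activity-regulated factors, had no match in the 5 windows on either strand. The GC content of these windows was 70.8% for Ina, 60.4% for Map1a, 63.6% for Map1b, 68.0% for Tubb3 and 32.0% for Map2. The median over all windows was 51.2%.

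The 4 filament genes had differences of both signs, Nefl above 0 except with quantile normalization and the others below 0. The light subunit gene Nefl stood at 331, 209.6 and 237 FPKM in B-CTRL 1, 2 and 3 and at 191, 225 and 246 FPKM in NB-CTRL 1, 2 and 3. Its groups overlapped, with B-CTRL 1 the highest of all and NB-CTRL 1 the lowest. The means were 259 ± 63.5 and 221 ± 28.1 FPKM (mean ± SD of the 3 libraries of a group, here and below with B-CTRL before NB-CTRL), a log2 difference of 0.21 ± 0.20 SE with a limma adjusted p of 0.607. Without B-CTRL 1 the log2 difference of Nefl was 0.022. Nefm, the medium subunit gene, stood at 115, 77.7 and 118 FPKM against 110.0, 147 and 117 FPKM. B-CTRL 2 was low and NB-CTRL 2 high, and the other 4 libraries lay close together. Its means of 104 ± 22.5 and 125 ± 19.8 FPKM gave a log2 difference of -0.28 ± 0.20 SE (limma adjusted p = 0.509). It was -0.37 without B-CTRL 1, -0.087 without B-CTRL 2 and -0.16 without NB-CTRL 2.

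Nefh, the heavy subunit gene, whose product carries the long phosphorylated side arm of the filament, stood at 47.6, 34.0 and 31.3 FPKM in B-CTRL and at 47.8, 83.2 and 41.9 FPKM in NB-CTRL. NB-CTRL 2 stood far above the other 5 libraries, and B-CTRL 1 lay level with NB-CTRL 1. The means were 37.7 ± 8.75 and 57.6 ± 22.3 FPKM, a log2 difference of -0.57 ± 0.29 SE (95% interval -1.24 to 0.11, limma adjusted p = 0.411). It was -0.27 without NB-CTRL 2 and -0.75 without B-CTRL 1. NB-CTRL 2 held the highest level of 8 of the 10 genes, all but Nefl and Stmn2. The summed level of 10 thalamic and hypothalamic marker genes was 95.4 FPKM in that library and 27.9 to 35.9 FPKM in the other 5, and its part in these values was not tested. Over both groups that sum ran from 30.6 to 35.9 FPKM in B-CTRL and from 27.9 to 95.4 FPKM in NB-CTRL. Of its 9 tested genes 6 had a lower mean log2 level in B-CTRL (median log2 difference -0.402), or 7 without B-CTRL 1 (median -0.396).

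Ina was at 51.3, 51.0 and 56.6 FPKM in B-CTRL and at 62.3, 83.4 and 63.9 FPKM in NB-CTRL. Every tested library lay below every untested one, and NB-CTRL 2 was the highest. Its means were 53.0 ± 3.17 and 69.9 ± 11.7 FPKM, a log2 difference of -0.38 ± 0.15 SE (95% interval -0.74 to -0.031, limma adjusted p = 0.400). The difference was -0.36 without B-CTRL 1 and -0.25 without NB-CTRL 2. In the table Ina shares its locus with the nucleotidase gene Nt5c2, at a mean of 33.9 FPKM, so its value is uncertain where reads could be split between them.

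Within the filament pool the light subunit made up a larger share in each B-CTRL library. Nefl held 60.7%, 56.3% and 53.5% of the summed FPKM of Nefl, Nefm, Nefh and Ina in the tested libraries 1 to 3, against 46.4%, 41.8% and 52.5% in the untested libraries 1 to 3. The ratio of Nefh to Nefl took the values 0.144, 0.162 and 0.132 in the tested and 0.251, 0.369 and 0.170 in the untested libraries. Neither measure overlapped between the groups, but the nearest libraries of the 2 groups, B-CTRL 3 and NB-CTRL 3 for the share and B-CTRL 2 and NB-CTRL 3 for the ratio, lay close together. The sum of the 4 genes itself was 453 ± 86.8 and 473 ± 64.4 FPKM, with overlap. The ratio of Nefm to Nefl overlapped as well, at 0.406 ± 0.0807 and 0.569 ± 0.0892. Among all single features, 12% had every B-CTRL library lower and 11.7% had every one higher. No such share was worked out for proportions. These proportions were worked out from the same values as the levels above, and no test was made of them.

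**Figure D2:**
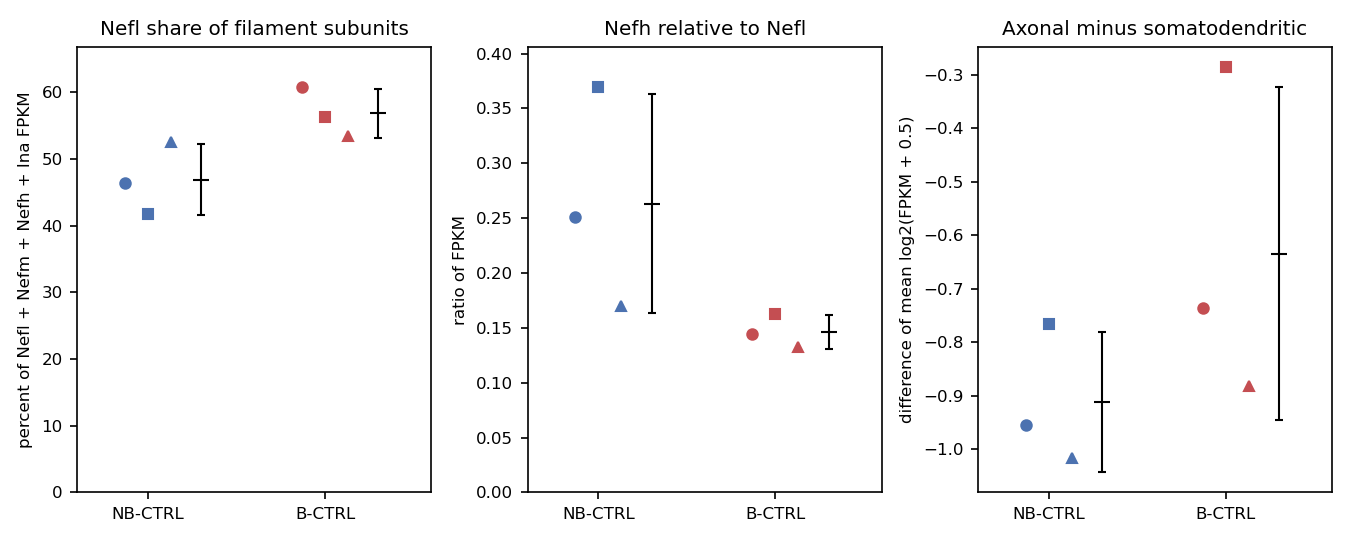
Proportions within each library: the share of Nefl in the summed FPKM of the 4 filament genes (percent), the ratio of Nefh to Nefl FPKM, and the mean log2(FPKM + 0.5) of the 5 axonal genes minus that of Map2 and Map1a (blue NB-CTRL, red B-CTRL; symbols are replicates 1 to 3; bars are mean ± SD of 3 libraries). The first 2 measures do not overlap between the groups and the last one does, with B-CTRL 2 highest at -0.29.

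The microtubule-associated protein genes were lower in B-CTRL on average, those of dendrites and those of axons alike. Map1b, which codes for a stabiliser of growing neurites and is the one with a TATAAA in its window above, stood at 111, 58.8 and 76.2 FPKM in B-CTRL and at 119, 178 and 139 FPKM in NB-CTRL. The groups were separate, with a narrow gap between B-CTRL 1 and NB-CTRL 1. The means were 81.9 ± 26.5 and 145 ± 29.9 FPKM. The log2 difference of -0.85 ± 0.26 SE (95% interval -1.46 to -0.24, limma adjusted p = 0.400, unadjusted 0.0132) had the largest size among the 10 genes. It was -1.09 without B-CTRL 1, with Map1b still lower in each library that was left, and -0.64 without B-CTRL 2.

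Map1a was at 123, 81.6 and 157 FPKM in B-CTRL and at 181, 185 and 183 FPKM in NB-CTRL. The untested libraries were almost level, with a coefficient of variation of 1.15% against 31.3% in the tested ones, and all 3 tested libraries lay below them. The means of 120.4 ± 37.7 and 183 ± 2.11 FPKM gave a log2 difference of -0.65 ± 0.23 SE (95% interval -1.20 to -0.10, limma adjusted p = 0.400, unadjusted 0.0264). Without B-CTRL 1 it was -0.69, and without B-CTRL 2 it was -0.40. The ratio of Map1a to Map1b, abundant in mature and in growing neurites respectively, was 1.52 ± 0.489 and 1.29 ± 0.240, with overlap.

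Mapt, the tau gene, stood at 115, 114 and 134 FPKM in B-CTRL and at 164, 168 and 154 FPKM in NB-CTRL. The groups were separate and each was tight. The means of 121 ± 11.2 and 162 ± 7.40 FPKM differed by -0.42 ± 0.12 SE on the log2 scale (95% interval -0.71 to -0.13, limma adjusted p = 0.400, unadjusted 0.0107), the lowest unadjusted p of the 10 genes. Leaving out any 1 library kept the log2 difference of Mapt between -0.50 and -0.38, and it was -0.39 without B-CTRL 1. Its locus is shared with 2 features at means of 0.363 and 0.0878 FPKM.

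Map2 was at 234, 116 and 185 FPKM in B-CTRL and at 211, 269 and 242 FPKM in NB-CTRL. The groups overlapped, with B-CTRL 1 above NB-CTRL 1. The means of 179 ± 59.0 and 241 ± 29.1 FPKM gave a log2 difference of -0.48 ± 0.26 SE (95% interval -1.09 to 0.13, limma adjusted p = 0.420). It was -0.70 without B-CTRL 1 and -0.20 without B-CTRL 2, where Map2 was lowest.

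B-CTRL 2 held the lowest level of 6 of the 10 genes, among them all 4 of these microtubule-associated protein genes. In that library features with long loci were low in general. With the features that have a locus of their own split into 8 classes of locus length, the longest class lay -0.53 log2 from the shortest in B-CTRL 2, while this gap was 0.022 in B-CTRL 1, -0.046 in B-CTRL 3 and between 0.17 and 0.23 in the untested libraries. In the longest class, which takes in the loci of Map1b (93.4 kb), Mapt (97.6 kb) and Map2 (143 kb), the median log2 difference was -0.23 (lower quartile -0.53) and 20.0% of features had every B-CTRL library lower. Map2 and Mapt thus lay between the quartiles of features of like locus length, and Map1b below it. The locus of Map1a is 20.4 kb, in a class with a median log2 difference of 0.015 and a lower quartile of -0.22. Map1a also lay below that lower quartile. These classes match genes by locus length only, which is not the length of the transcript. The part of transcript length and of RNA integrity in these differences was not tested. Among genes with short loci, Nefh (-0.57), Nefm (-0.28) and Tubb3 (-0.20) lay below the lower quartiles of their classes too, of -0.11, -0.098 and -0.11. In all, 8 of the 10 genes lay below the median of their length class, with the shared loci used for Mapt and Ina. With each library's trend with locus length removed, the log2 difference was -0.64 for Map1b, -0.64 for Map1a and -0.23 for Map2. Mapt and Ina share their loci and were not computed in that setting.

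**Figure D3:**
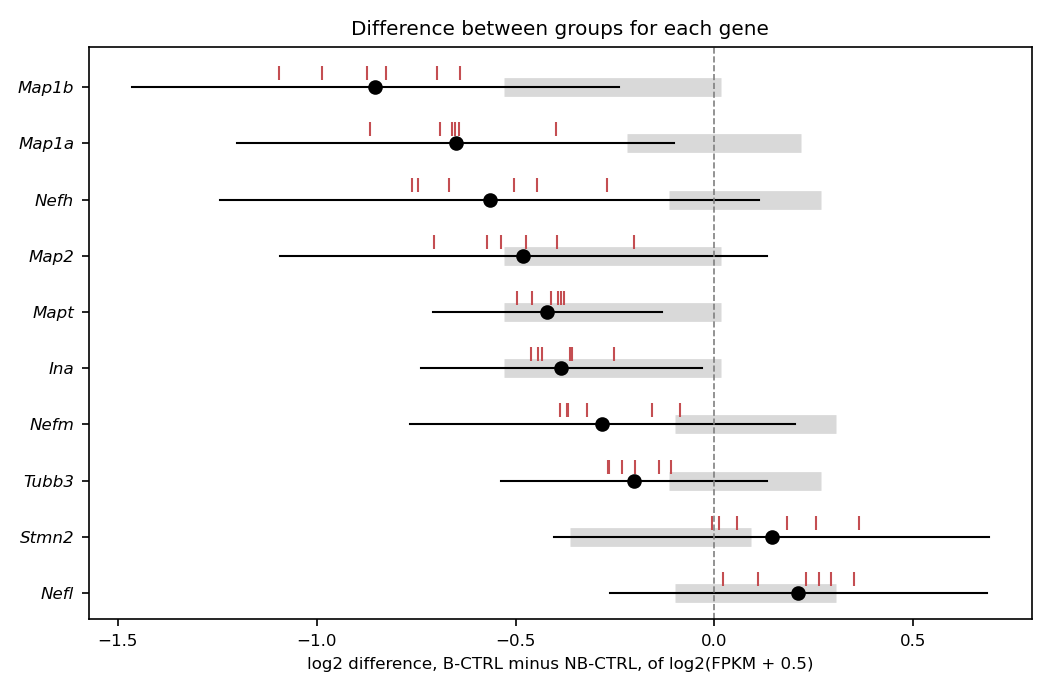
Log2 difference between B-CTRL and NB-CTRL for each gene (black point, with its 95% interval from limma as a line), the values with each library left out in turn (red ticks), and the range between the quartiles of the features with a locus of their own in the same class of locus length (grey bar; for Ina and Mapt the class is that of the shared locus). The intervals of Map1b, Map1a, Mapt and Ina lie below 0, and of these 4 Map1b and Map1a lie below their grey bars. Nefh, Nefm and Tubb3, whose intervals include 0, also lie below their bars, and Stmn2 lies above its own.

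Tubb3, the beta tubulin gene of neurons, was at 265, 316 and 288 FPKM in B-CTRL and at 319, 378 and 304 FPKM in NB-CTRL. Only B-CTRL 2 lay inside the range of the untested libraries. The means of 289.6 ± 25.9 and 334 ± 39.1 FPKM gave a log2 difference of -0.20 ± 0.14 SE (limma adjusted p = 0.497). It was -0.14 without B-CTRL 1, -0.11 without NB-CTRL 2 and -0.45 with quantile normalization. Stmn2 was at 317, 297 and 194 FPKM in B-CTRL and at 193, 278 and 251 FPKM in NB-CTRL. B-CTRL 1 and 2 lay above every untested library, and B-CTRL 3 close to the lowest of them. Its means of 269 ± 65.9 and 241 ± 43.3 FPKM gave a log2 difference of 0.14 ± 0.23 SE (95% interval -0.40 to 0.69, limma adjusted p = 0.770). The sign of Stmn2 was not stable: the difference was 0.010 without B-CTRL 1 and -0.0065 without NB-CTRL 1.

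The balance of axonal against dendritic genes overlapped between the groups. The mean log2 level of Nefl, Nefm, Nefh, Ina and Mapt minus that of Map2 and Map1a stood at -0.74, -0.29 and -0.88 in the tested and at -0.95, -0.77 and -1.02 in the untested libraries, each in the order 1, 2, 3. B-CTRL 2, in which Map2 and Map1a were lowest, stood highest, and B-CTRL 3 lay within the untested range. The ratio of Map2 to Mapt, a dendritic against an axonal microtubule-associated protein gene, was 1.48 ± 0.511 and 1.49 ± 0.176. The mean deviation of all 10 genes from their 6-library means stood at 0.021, -0.39 and -0.16 log2 in the 3 B-CTRL libraries and at 0.021, 0.38 and 0.12 log2 in the 3 NB-CTRL libraries, so B-CTRL 1 and NB-CTRL 1 were level.

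**Figure D4:**
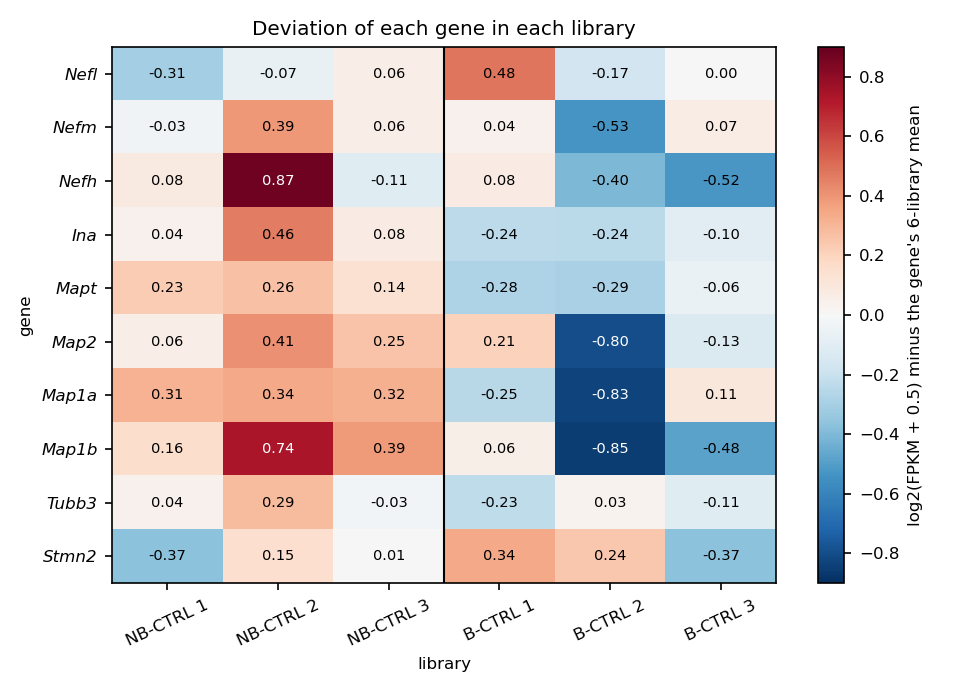
Deviation of each gene in each library from the gene's mean over the 6 libraries, in log2(FPKM + 0.5) (red above, blue below; the line parts NB-CTRL from B-CTRL). NB-CTRL 2 is the highest library for 8 of the 10 genes and B-CTRL 2 the lowest for 6, while Nefl and Stmn2 have their highest value in B-CTRL 1.

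Some of the 10 genes followed each other closely from library to library. Likeness was measured as the mean absolute difference of 2 profiles of log2 level, each centred on its own 6-library mean. Of the 45 pairs, Mapt and Ina (0.095 log2) and Tubb3 and Ina (0.095 log2) were nearest, and Stmn2 and Map1a (0.55 log2) and Nefl and Map1b (0.53 log2) farthest apart. Nefl and Nefh, subunits of one filament, were 0.44 log2 apart. Among 7736 other features averaging 5 FPKM or more and having a locus of their own, those most like the mean profile of Nefl, Nefm and Nefh were RGD1305110 (0.031 log2), Reps1 (0.045), Nceh1 (0.051), Cdkl4 (0.062) and Ccdc127 (0.062). Those most like Map2 were Enah (0.060 log2), Ids (0.061), Acadsb (0.069), Spopl (0.071) and Arhgap21 (0.072), and Enah codes for an actin regulator. With 6 libraries such matches are many, and they are given as a description.

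Other cytoskeleton genes were counted by list. The lists differ in locus length, with which the group difference moved. For each of these lists the typical value for its locus lengths is therefore given (the median, over the list's genes, of the median difference in each gene's length class). Lower or higher on average refers to the mean log2 level. Of 28 tested features for other microtubule-associated proteins, 22 were lower on average in the tested rats (median log2 difference -0.18, against -0.0024 over all features). The typical value for their locus lengths was -0.13, and 18 of the 28 lay below the median of their length class. In 6 of the 28 every B-CTRL library was lower, against 12% of all features and 20.0% of those in the longest class. An unadjusted p under 0.05 was reached by 3 of the 28, all lower. Of all features 6.07% were lower at that p, and 12.3% reached it in either direction. Without B-CTRL 1 the median was -0.17. Clasp1, which stabilises growing microtubule ends, stood at 12.02 ± 5.36 and 21.8 ± 2.47 FPKM (log2 difference -0.94 ± 0.35 SE). Its locus is shared with another feature, as are those of Gsk3b, Cntn2 and Ank2 below, and such values are uncertain. Camsap3, which binds minus ends, differed by -0.39 ± 0.15 SE, and Map6, which makes microtubules resistant to cold, by -0.46 ± 0.18 SE. Of 14 genes of the ankyrin and spectrin scaffold under the axon membrane and its initial segment, 13 were lower on average, with a median of -0.50, or -0.51 without B-CTRL 1 and -0.15 without B-CTRL 2. Their loci have a median length of 96.9 kb, for which the typical value was -0.23. In 3 of the 14 every B-CTRL library was lower, close to the share of the longest class. These were Nfasc, an adhesion gene of the initial segment, at 56.4 ± 11.8 and 84.3 ± 15.9 FPKM (log2 difference -0.58 ± 0.21 SE), the axonal adhesion gene Cntn2 (-0.88 ± 0.32 SE) and Ank2 (-1.09 ± 0.48 SE). The summed level of the scaffold genes was lowest in B-CTRL 2, at 729 FPKM, and highest in B-CTRL 3, at 1401 FPKM.

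Tubulin genes have short loci, of 6.46 kb at the median, for which the typical value was 0.11 log2. Of 14 tested tubulin genes beside Tubb3, 10 were higher on average in the tested rats (median log2 difference 0.080), and none was separate between the groups. Without B-CTRL 1 they were split, 7 higher and 7 lower, with a median of 0.021. Tuba1a, the main neuronal alpha tubulin gene, stood at 715 ± 156 and 572 ± 17.9 FPKM (0.30 ± 0.18 SE), Tuba4a differed by 0.19 ± 0.18 SE, and the gamma tubulin gene Tubg2 by -0.34 ± 0.17 SE. Tubulin genes have near-identical copies, so single values are uncertain. Of 7 tested stathmins and severing enzymes 6 were higher, with a median of 0.16, or 0.11 without B-CTRL 1 and 0.046 without B-CTRL 2. The typical value for their locus lengths was 0.015. Stmn4, a neuronal relative of Stmn2, stood at 350.3 ± 30.5 and 257 ± 20.0 FPKM with every B-CTRL library higher (log2 difference 0.45 ± 0.13 SE), against 11.7% of all features with every B-CTRL library higher. The severing enzyme gene Katna1 was also higher in every B-CTRL library (0.44 ± 0.15 SE). Stmn4 and Katna1 had an unadjusted p under 0.05, as had 6.25% of all features in that direction. Fign, a gene of low level, was at 0.695 ± 0.406 and 1.82 ± 0.539 FPKM with every B-CTRL library lower (-0.98 ± 0.31 SE). It too had an unadjusted p under 0.05, as had 6.07% of all features that were lower.

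Among 15 tested features for tubulin modification and folding, 10 were lower (median -0.16, against a typical value of -0.13 for their locus lengths). Without B-CTRL 1, 8 were lower (median -0.022). The tubulin acetyltransferase gene Atat1 stood at 35.6 ± 5.56 and 52.9 ± 9.61 FPKM with every B-CTRL library lower (-0.56 ± 0.19 SE), the polyglutamylase gene Ttll7 differed by -0.72 ± 0.38 SE, and the folding cofactor gene Tbca, with every B-CTRL library higher, by 0.50 ± 0.21 SE. Of 12 tested kinases and phosphatase subunits that act on the cytoskeleton, 8 were lower (median -0.16, or -0.039 without B-CTRL 1). For their locus lengths the typical value was -0.079. Mark4, a kinase of tau, stood at 28.3 ± 3.55 and 37.1 ± 3.28 FPKM (-0.39 ± 0.14 SE), Dyrk1a differed by -0.43 ± 0.19 SE, and the tau kinase gene Gsk3b by -0.86 ± 0.47 SE. Other intermediate filament genes had a lower mean log2 level in 8 of 8 (median -0.22, against a typical value of 0.069 for their locus lengths). All 8 lay below the median of their length class. The median was -0.42 without B-CTRL 1, and without B-CTRL 2 the level was lower in 5 of 8 (median -0.13). Lmnb1, a nuclear lamin gene, differed by -0.45 ± 0.15 SE, Prph, the peripherin gene of neurons with peripheral axons, by -0.51 ± 0.21 SE and Lmnb2 by -0.46 ± 0.25 SE. The astrocytic filament gene Gfap lay at 203 ± 81.4 and 197 ± 15.0 FPKM, higher in B-CTRL by the mean FPKM and lower by the mean log2 level (-0.023). No gene of these 7 lists passed the limma test over all features (lowest adjusted p = 0.400).

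**Figure D5:**
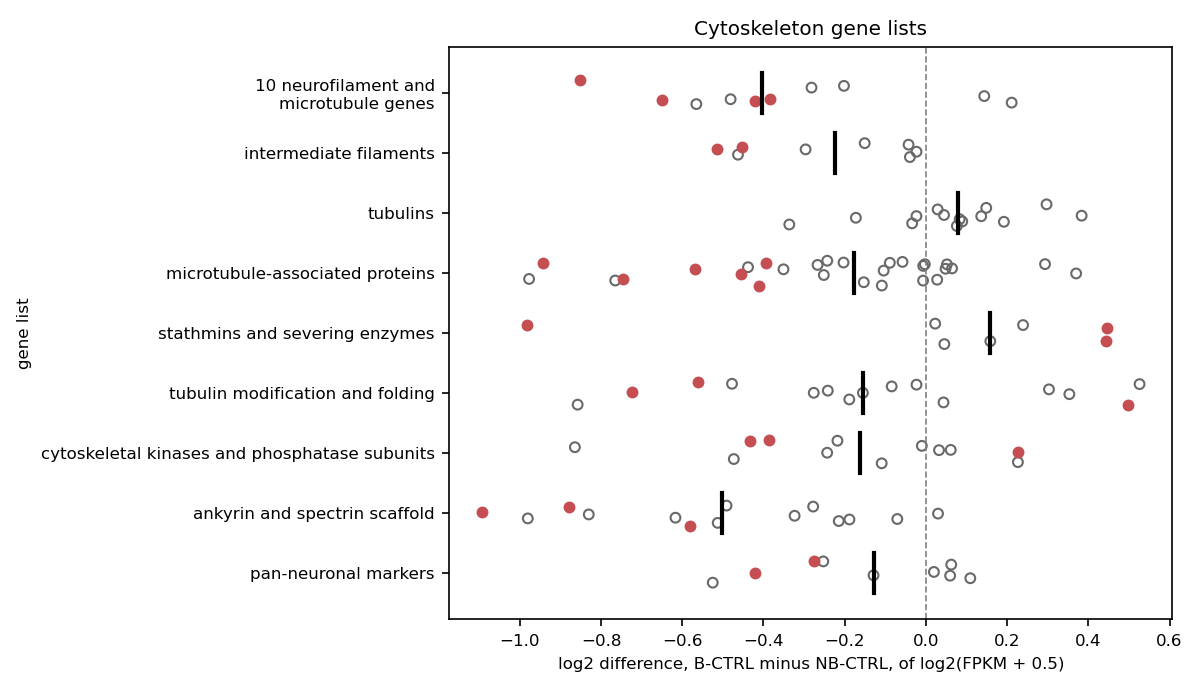
Log2 difference between B-CTRL and NB-CTRL for each tested gene of the 10-gene set, of the other cytoskeleton lists and of the pan-neuronal markers (1 point per feature; filled points have no overlap between the groups; black bars are list medians). The medians run from -0.50 for the ankyrin and spectrin scaffold to 0.16 for stathmins and severing enzymes.

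Of 9 tested pan-neuronal markers 5 were lower on average in the tested rats (median log2 difference -0.13, or -0.10 without B-CTRL 1). The typical value for their locus lengths was also -0.13. Their summed level was 3889 to 4307 FPKM in B-CTRL and 3608 to 4525 FPKM in NB-CTRL. With each library centred on these markers, the log2 difference was -0.70 for Map1b, -0.50 for Map1a, -0.27 for Mapt, -0.23 for Ina and -0.052 for Tubb3. The loci of these markers have a median length of 69.6 kb, and the part of locus length in this setting was not tested. All 8 oligodendrocyte markers were higher on average in B-CTRL (median 0.41), or 6 of 8 without B-CTRL 1 (median 0.20), with summed levels of 8609 to 16775 FPKM in B-CTRL and 7292 to 14252 FPKM in NB-CTRL. Of 7 microglia markers 6 were higher on average and 3, Tmem119, Aif1 and C1qb, had every B-CTRL library higher, against 11.7% of all features, with summed levels of 209.0 to 291 FPKM and 199.8 to 221 FPKM and a median of 0.25, or 0.13 without B-CTRL 1. Markers of neuron types varied widely over the libraries of both groups. Excitatory markers were higher on average for 5 of 7 (median 0.47), or 3 of 7 without B-CTRL 1 (median -0.086), with sums of 1543 to 2454 FPKM in B-CTRL and 921 to 1869 FPKM in NB-CTRL. Their mean log2 deviation was lowest in B-CTRL 2, at -1.54, where 6 of the 10 genes were lowest as well, and stood at 1.095 in B-CTRL 1, 0.89 in B-CTRL 3, -0.76 in NB-CTRL 1, -0.69 in NB-CTRL 2 and 1.01 in NB-CTRL 3. Inhibitory markers were lower on average for 8 of 9 (median -0.097), or 3 of 9 without B-CTRL 1 (median 0.059), with sums of 984 to 1875 FPKM and 1308 to 1652 FPKM. Striatal markers were higher on average for 6 of 7 (median 0.23, or 0.77 without B-CTRL 1), with sums of 1115 to 3901 FPKM and 991 to 2489 FPKM. Astrocyte markers were higher for 3 of 6 (median 0.013, or -0.0067 without B-CTRL 1), with sums of 1222 to 1445 FPKM and 1295 to 1348 FPKM. Typical values for locus length, as defined above, were 0.054 for oligodendrocyte, 0.11 for microglia and 0.083 for excitatory markers. They were 0.11 for inhibitory, 0.054 for striatal and 0.035 for astrocyte markers. The part of these cell types in the levels of the 10 genes was not tested.

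In the files' build rn6 the loci of the 4 genes whose groups did not overlap are chromosome 2, 29675390 to 29768750 for Map1b (ENSRNOG00000017428), chromosome 3, 113251777 to 113272186 for Map1a (ENSRNOG00000014230), chromosome 10, 92288909 to 92386517 for Mapt (ENSRNOG00000005133) and chromosome 1, 266659518 to 266794431 for the locus that holds Ina (ENSRNOG00000020248). Nefl and Nefm lie near each other on chromosome 15, at 44799333 to 44804574 and at 44855309 to 44860604, and their profiles over the libraries were 0.27 log2 apart.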

How the data were processed

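Amygdala RNA was poly(A)-selected and made into strand-specific libraries, 3 of B-CTRL and 3 of NB-CTRL. The deposited table holds FPKM values made by the authors, 1 column per library, per the file headers. Per the submitters' processing notes, the tools were Cuffdiff 2.2.1 and STAR 2.5.4b and the build was rn6. Their settings, the gene annotation and any read filter are not given in the labels or files. Fragment counts were not used here, so absolute depth, counting intervals and floors are not given. Steps among low values put the libraries' depth at roughly 0.722 (B-CTRL 2) to 1.67 (NB-CTRL 2) times that of NB-CTRL 1, with NB-CTRL 3 at 1.64. B-CTRL 2 was the lowest library for 6 of the 10 genes and NB-CTRL 2 the highest for 8. The part of depth in this was not tested.

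The 10 genes, the other gene lists and the tests were chosen with earlier results of these data known. Of 192 listed symbols, 3 matched no feature and are not analysed here. Features averaging 0.5 FPKM or more (14043 of 32662) were tested on log2(FPKM + 0.5), which understates the change of low genes, with limma 3.58.1 in R 4.3.3: 2-sided, with an intensity trend, without covariates, all 6 libraries in the fit, 4 residual and 2.97 prior degrees of freedom, Benjamini-Hochberg over all features, threshold 0.05. With 3 libraries a group the smallest exact permutation p is 0.1, so none is given. Named were the 10 genes, the 3 genes with the lowest p of each other cytoskeleton list, and the 5 features nearest to 2 reference profiles. Other genes named were chosen after their values were seen. Locus length is that of the file in rn6; 3026 tested features share a locus. Alternatives were 2 pseudocounts, 2 filters, 4 scalings, 3 limma settings, the replicate number as a block, and leaving out each library. List counts and medians without B-CTRL 1 or 2 were added after seeing the data. The fit was tested on simulated data, with 200 of 14043 features changed. It called 45% of the 2-fold and 84% of the 4-fold changes, with 7 false calls. The simulated noise was drawn for each feature on its own. Shifts shared by many features of a library were not part of it, so the rates may differ in the real libraries. All 10 genes differed by less than 2-fold, so the lack of calls does not show that they were unchanged. No 2 libraries held identical columns.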

Additional observations from a re-analysis of the deposited data

How the results depend on the processing

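Over 18 alternatives, or 17 for Mapt and Ina, none of the 10 genes passed the adjusted threshold, and 8 kept the direction of their log2 difference in each alternative run. The exceptions were Nefl, at -0.012 with quantile normalization, and Stmn2, at -0.092 with quantile normalization. With single libraries left out Stmn2 ran from -0.0065 to 0.36. The lowest adjusted p over the alternatives was 0.108 for Mapt and 0.108 for Map1a. The count of genes called over all features was 0 in the reported fit (1730 at an unadjusted p under 0.05) and 0 to 1 with single libraries left out, the 1 being SNORA70 without NB-CTRL 3. The number of the 10 genes at an unadjusted p under 0.05 was 4, against 1730 of 14043 features. Without NB-CTRL 2 it was 1, against 516 of 14043 features, and with centring on pan-neuronal markers 2, against 1669 of 14043. With the length trend removed it was 2 of 8, against 1203 of 11017 features. With quantile normalization it was 6, against 1659 of 14043. Centring on pan-neuronal markers moved the median of all features from -0.0024 to 0.15, so differences under that setting stand against that shift. No pairing of libraries by replicate number was visible. Same-numbered deviations correlated at -0.22, 0.072 and 0.15 across features, and those of unlike number at -0.30 to 0.22. With 3 libraries a group this cannot exclude a pairing. With the replicate block the count called was 0 over all features and 0 of the 10 genes. An unadjusted p under 0.05 was then reached by 3 of the 10, and by 1463 of 14043 features. Depth limits are unknown without counts. With 3 libraries a group the intervals are wide, as for Nefh (-1.24 to 0.11 log2).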
